A study of Arabidopsis thaliana with 222 samples.

Results

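The roots described here belonged to wild-type Arabidopsis thaliana plants of the accession Col-0 that had grown with a single bacterial strain, L264, an isolate of the genus Leifsonia and so a member of the Actinobacteriota. The libraries were taken by 2 labels, genotype Col 0 and treatment L264, which 6 of the 222 libraries of the series carry, and they were set against the 6 Col-0 libraries of treatment NB, which received no bacterium. Every gene of the count table was a member, 32311 genes in all, and 21635 of them had enough counts to be tested. Neither group carries a mutation or a transgene, and all plants shared the same handling: seeds germinated without microbes on agar for a week, and the seedlings then spent another week on plates that held the strain or, for NB, its suspension buffer of magnesium chloride. Each library holds messenger RNA of a pool of several roots. The Col-0 plants of the series comprise 17 groups of 6 libraries, NB and 16 strains, and the other 15 strains are used below only to show where L264 differs. L264 was the only actinobacterium among the 16. The labels do not say which libraries came from separate cultures or which repeat of the experiment a library belongs to. The p-values therefore rest on the spread between libraries within groups, whether or not these came from separate cultures. That spread was estimated jointly over all 37 groups of the 222 libraries, not from these 6 and 6 libraries alone. In bulk roots, more cells of a type and more RNA per cell cannot be told apart.

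Lateral roots start in pericycle cells, where auxin removes Aux/IAA repressor proteins and frees the auxin response factors ARF7 and ARF19, which switch on LBD genes and, later, the genes that loosen the walls of the overlying cells. Auxin also promotes the growth of root hairs, tubular outgrowths of epidermal cells whose elongation is driven by the transcription factor RSL4 and a battery of cell wall genes. Bacteria that live on roots are known to change both kinds of outgrowth, to be sensed through receptors such as FLS2, which binds flagellin, and to alter the plant's uptake of iron and other nutrients.

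The L264 libraries held 15211948 to 29075764 counts and the NB libraries 10255732 to 22349949, with 22644 to 23801 genes at 1 count or more in these 12 libraries. All 10 markers of root tissue were present in every group, among them the endodermal gene CASP1 (179 against 136 CPM in the L264 and NB means) and the stele gene SHR (27.8 against 26.9 CPM). Markers of shoot tissue moved with 1 library: 25 photosynthesis genes summed to 3651 CPM (counts scaled to a common library total) in L264 replicate 5, against 895 to 1345 CPM in the other 5 L264 libraries and 1156 to 1579 CPM in the 6 NB libraries. That sum was the highest of all 102 Col-0 libraries, whose median was 1155 CPM. Named genes whose call was lost without this library are marked below, and list counts without it are given for some lists. Among the NB libraries, replicate 5 lay farthest from its group, with a correlation of log2 levels across genes of 0.9801 with the mean of the other 5, replicate 1 was the highest for many of the genes that were lower with L264, and replicate 2 was the shallowest. NB was the most variable of the 17 Col-0 groups, with a median within-group variance of log2 levels of 0.0439 (L264, 0.0240). The spread used in the tests is shared among all groups and is not specific to NB.

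**Figure D1:**
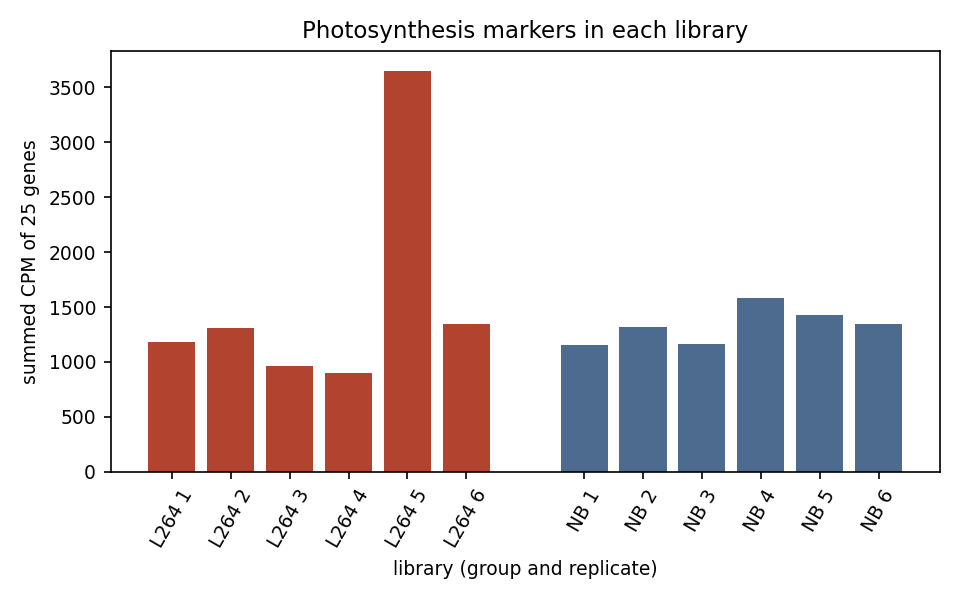
Summed level of 25 photosynthesis genes (vertical axis, CPM) in each of the 6 L264 and 6 NB libraries, 1 bar per library. L264 replicate 5 stands at 3651 CPM, and the other 11 libraries lie between 895 and 1579 CPM.

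L264 roots differed from NB roots at many genes, most of them by less than a doubling. Of 21635 genes tested, 7252 differed between L264 and NB roots at an adjusted p below 0.05 in edgeR's quasi-likelihood test with Benjamini-Hochberg adjustment (33.5%). Of these, 3666 rose (16.9%) and 3586 fell (16.6%). A log2 fold change of at least 1 in either direction was reached by 1066 of the called genes, 761 up and 305 down. For 2632 genes (12.2%) the 6 L264 libraries did not overlap the 6 NB libraries. Library numbers in the labels fall into a high and a low range with 3 libraries of each group in either. Of 21946 genes tested within each range, 4446 were called in the high one (2525 up and 1921 down). In the low one 5522 were called (2542 up and 2980 down). Fewer genes were thus called over all genes with 3 libraries a group, and list counts within a range are read beside these. A fit of the 12 libraries alone called 4538 genes (2382 up and 2156 down). The median log2 fold change over all genes tested was 0.0. These shares are the background against which each list below is read. A list whose counts lie near them in both directions, such as the jasmonate list, does not stand out as a list.

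The 15 highest fold changes, among called genes whose groups did not overlap and that reached 1 CPM, lay between 3.71 (UMAMIT35) and 5.48 (NIG1) on the log2 scale. PGAZAT, a polygalacturonase that cuts pectin and is known from cell separation, measured 62 to 95.9 CPM (median 80.3) in the L264 libraries, against 0.786 to 7.78 CPM (median 1.25) in the NB libraries (log2 fold change 5.36 ± 0.50 SE, adjusted p = 2.7e-18). AIR1, named for its induction by auxin in root cultures, measured 2501 to 3757 CPM (median 3105) with L264 and 61.6 to 462 CPM (median 132) in NB (log2 fold change 4.16 ± 0.32 SE, adjusted p = 3e-24). It has near-identical neighbours on chromosome 4, so the split of reads among them is uncertain. For both genes every L264 library lay far above every NB library. The wall gene EXPB2, a beta-expansin, had 11.1 to 35.5 CPM (median 25.1) with L264 and 0.562 to 3.31 CPM (median 1.06) in NB (log2 fold change 4.35 ± 0.50 SE, adjusted p = 1.5e-13). PR-1-LIKE, a relative of the pathogenesis-related protein PR1, had 112 to 176 CPM (median 149.6) with L264 and 4.65 to 18 CPM (median 6.53) in NB (log2 fold change 4.27 ± 0.39 SE, adjusted p = 4.7e-19). Neither gene's groups overlapped. Without NB replicate 2, at 7.78 CPM for PGAZAT, the log2 fold change of that gene was 6.07.

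The others of these 15 were PIRL8, a leucine-rich repeat protein related to Ras-binding proteins (log2 fold change 5.25), UMAMIT35, of a transporter family (3.71), the pectin lyase-like gene AT1G11920 (3.99), the kinase gene AT1G33770 (3.98), the leucine-rich repeat receptor kinases AT3G46340 (3.92) and AT4G29450 (3.80), and AT1G23510 (4.20), together with NIG1, AT2G43860, XTH26 and FLS2. From PIRL8 to AT1G23510 the adjusted p-values lay between 1e-19 for UMAMIT35 and 4.7e-10 for AT3G46340. NIG1, a transcription factor of the MYC group, and AT2G43860, another pectin lyase-like gene, were nearly silent without the strain. NIG1 had 195 counts in all L264 libraries and 3 in all NB libraries, a ratio per library total of 53.7 (95% counting interval 18.1 to 263). AT2G43860 had 133 and 3 counts, a ratio of 36.6 (12.3 to 180). These intervals cover counting error only. NIG1 was listed at 0 in every NB library but replicate 2 (0.292 CPM), and its log2 fold change was 5.48 with all libraries and 7.91 without that one. That of AT2G43860 was 4.89 and 5.95. Without NB replicate 2 the log2 fold change was 5.90 for PIRL8, 5.02 for AT1G11920 and 4.53 for AT3G46340, and without NB replicate 6 it was 4.42 for AT4G29450.

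**Figure D2:**
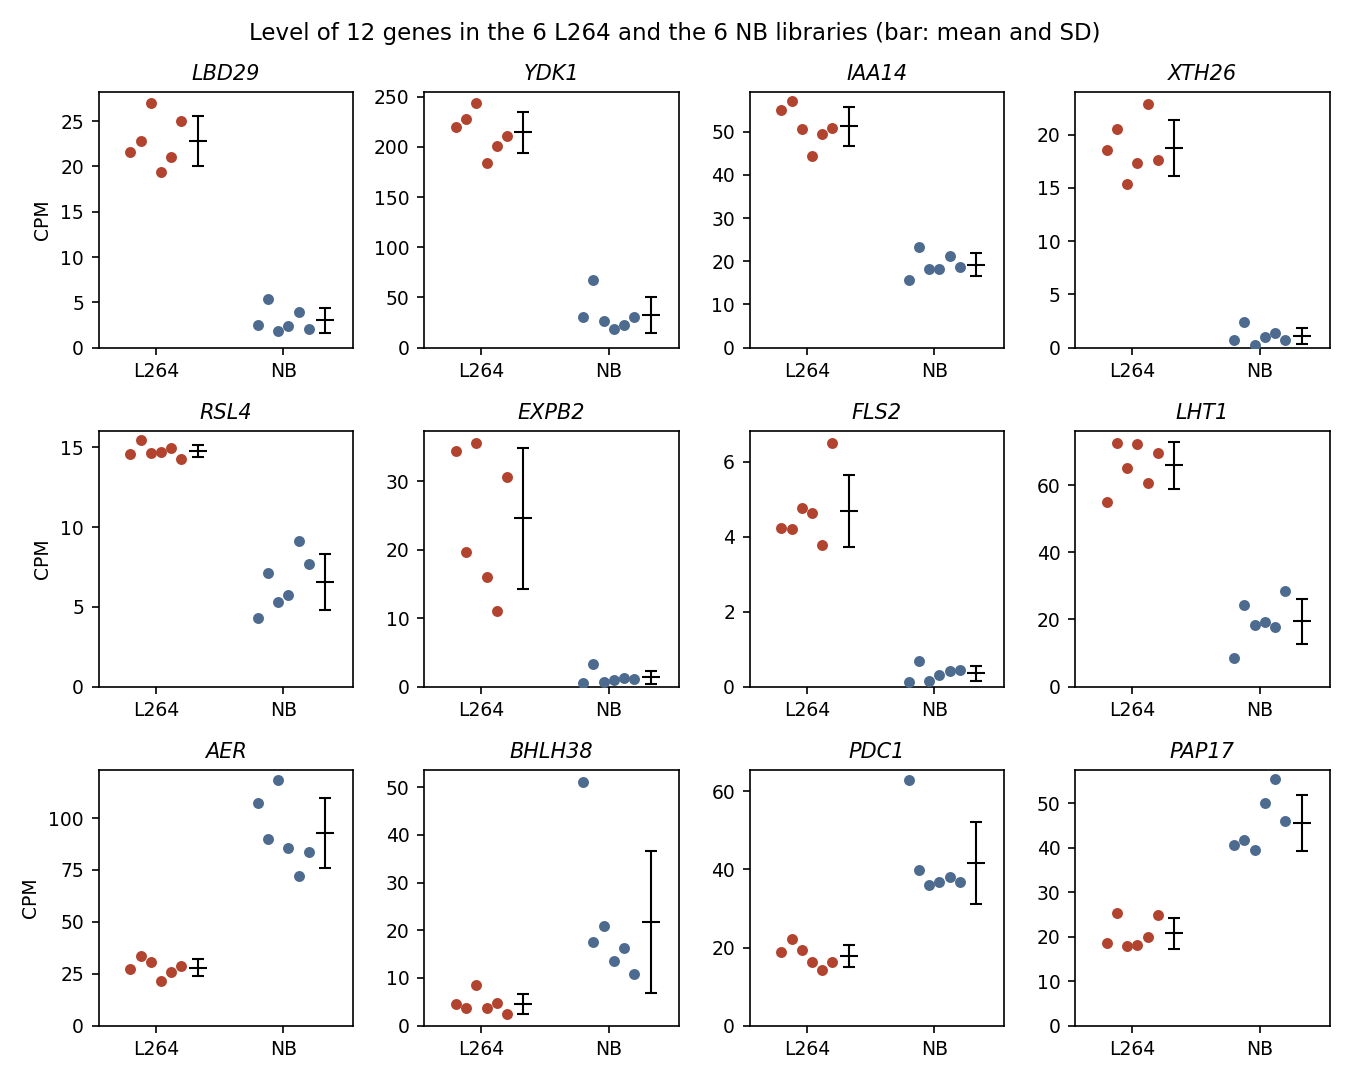
Level (vertical axis, CPM, starting at 0) of 12 genes in each L264 library (left in each panel) and each NB library (right), with the mean and SD of each group as a bar. In the panels of LBD29, YDK1, IAA14, XTH26, RSL4, EXPB2, FLS2 and LHT1 every L264 library lies above every NB library, and in those of AER, BHLH38, PDC1 and PAP17 every L264 library lies below.

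The 15 lowest fold changes by the same rule lay between -4.85 (AT5G09570) and -2.29 (UGT84A3). UGT84A3, a glycosyltransferase that conjugates phenylpropanoid acids, measured 2.52 to 6.27 CPM (median 3.74) in L264 libraries, against 9.51 to 35.1 CPM (median 16.9) in NB libraries (log2 fold change -2.29 ± 0.25 SE, adjusted p = 3e-14). ChlAKR, an aldo-keto reductase, measured 2.56 to 3.95 CPM (median 3.01) with L264 and 7.57 to 27.3 CPM (median 14.2) in NB (log2 fold change -2.30 ± 0.27 SE, adjusted p = 2.8e-13). NB replicate 1 was the highest of the NB libraries for both genes, at 35.1 CPM for UGT84A3 and 27.3 CPM for ChlAKR, yet the lowest NB library still exceeded the highest L264 library. DOGT1, a glucosyltransferase that acts on foreign compounds, averaged 0.261 ± 0.215 CPM with L264 and 4.55 ± 5.32 CPM in NB (SD, n = 6 each; log2 fold change -4.08 ± 0.59 SE, adjusted p = 2.7e-09). The other genes of the 15 lowest included NDB4, an alternative mitochondrial NAD(P)H dehydrogenase (-4.04), BIP3, a chaperone of the endoplasmic reticulum (-3.21), the CHCH-family gene AT5G09570 (-4.85), the calcium-binding gene AT2G41730 (-2.64) and the unannotated genes AT5G24640 (-3.87), AT3G54530 (-3.61) and AT4G12735 (-3.46), all log2 fold changes past the threshold. Without NB replicate 1 the log2 fold change was -3.13 for DOGT1, -3.26 for NDB4, -3.98 for AT5G09570, -3.14 for AT5G24640 and -3.02 for AT3G54530. HRE2, BGLU28, BHLH100, AT2G21640 and AT5G16980 complete them and are described with their lists.

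**Figure D3:**
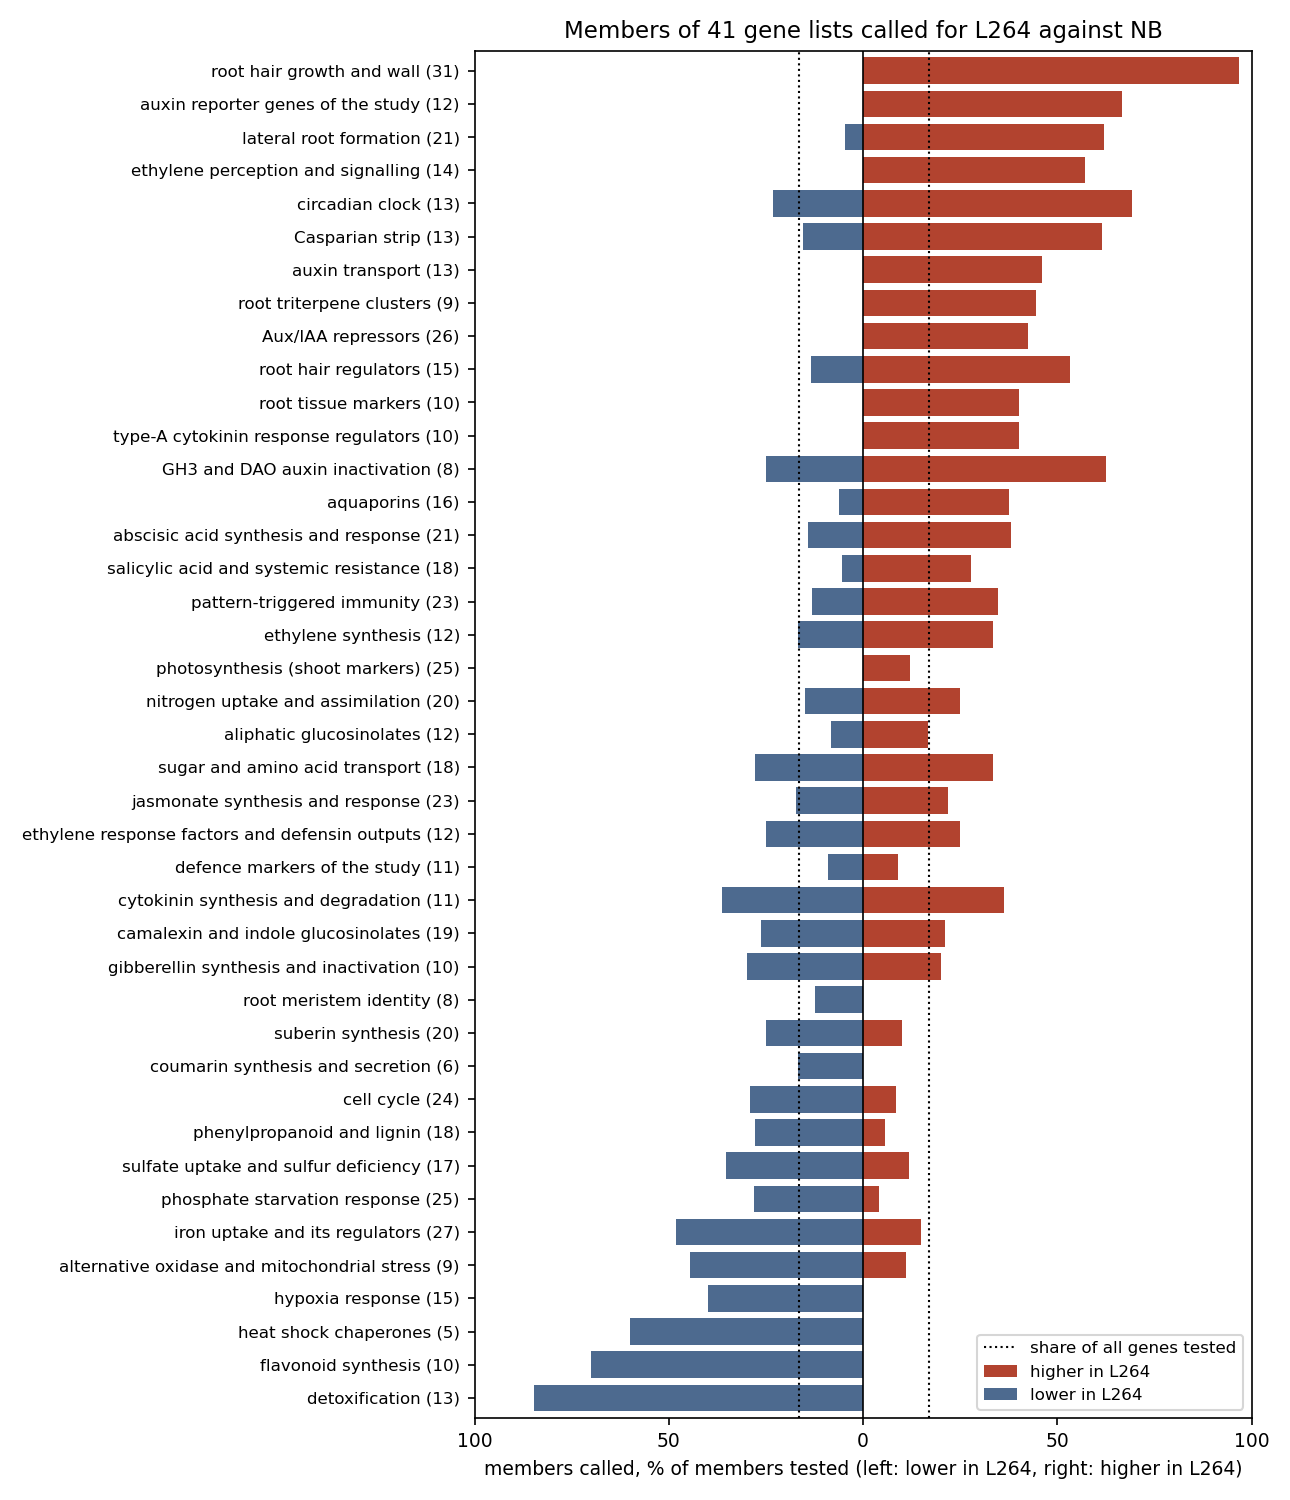
Share of the tested members of each of 41 gene lists that rose (to the right of 0) or fell (to the left) in L264 against NB roots, in percent of members. The dotted lines mark the shares over all genes tested, 16.9% up and 16.6% down. The bar of root hair growth reaches farthest to the right among the lists of known function, with 30 of 31 members, and that of detoxification farthest to the left, with 11 of 13.

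Genes that auxin induces rose more often than they fell with L264. GH3 enzymes inactivate auxin by joining it to amino acids, and DAO enzymes oxidise it. In this list 5 rose and 2 fell of 8 tested (median log2 fold change 1.06), beside shares of 16.9% and 16.6% over all genes. The GH3 gene YDK1 measured 184 to 243 CPM (median 215) in L264 libraries, against 18.5 to 66.9 CPM (median 28.6) in NB libraries (log2 fold change 2.75 ± 0.20 SE, adjusted p = 4.1e-25). WES1, another GH3 gene, measured 124 to 173 CPM (median 157) with L264 and 27.7 to 57 CPM (median 37.4) in NB (log2 fold change 1.95 ± 0.17 SE, adjusted p = 8.3e-20). The groups were wide apart for both. DFL1 (log2 fold change 1.03), GH3.1 (1.19) and GH3.3 (1.10, not called without any 1 of 3 libraries, 0.81 to 0.98) were the other members that rose. The groups of GH3.3 overlapped. The members that fell were the oxygenase genes AT1G14130 (-0.69) and AT1G14120 (-0.49).

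Of the Aux/IAA genes, whose proteins repress auxin responses and are themselves induced by auxin, 11 rose and 0 fell of 26 tested (median log2 fold change 0.29). IAA14, which holds back lateral root initiation, measured 44.4 to 57.1 CPM (median 50.6) in L264 libraries, against 15.6 to 23.4 CPM (median 18.5) in NB libraries (log2 fold change 1.42 ± 0.12 SE, adjusted p = 5.6e-22). No L264 library came near the NB range. IAA31 (1.39), IAA19 (1.01), IAA2 (0.96), IAA1 (0.96) and SHY2 (0.69) also rose without overlap, and IAA11, IAA9, IAA26, IAA17 and IAA10 rose by less. IAA7, a close relative of IAA14, did not pass (70.2 against 68 CPM, adjusted p = 0.74), nor did IAA16 (325 against 311 CPM, adjusted p = 0.42). Of 12 auxin reporter genes named by the study, 8 rose and 0 fell, YDK1, WES1, SHY2 and IAA11 among them. PBP1, a calcium-binding partner of the kinase PINOID, averaged 11.1 ± 3.22 CPM in L264 roots and 2.47 ± 0.309 CPM in NB roots (SD, n = 6 each; log2 fold change 2.17 ± 0.22 SE, adjusted p = 1.5e-16). In the transport list 6 rose and 0 fell of 13 tested (median log2 fold change 0.11). The influx carriers LAX3 (156 against 104 CPM in the L264 and NB means, log2 fold change 0.59) and AUX1 (0.37) and the efflux carriers PIN7 (0.39) and PIN3 (0.30) rose, as did PID (0.75) and ABCB19 (0.39), while PIN2 did not pass (87 against 98.4 CPM).

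Auxin response factors bind the hexamer TGTCTC, so the 300 bases before each gene start were searched for it on both strands. It was found at 9 of 26 Aux/IAA genes (34.6%), at 3 of 9 GH3 and DAO genes (33.3%) and at 13% of 27431 protein-coding genes. The hexamer was already known from genes that auxin induces, so its share in these lists is no independent evidence. Of the 9 Aux/IAA genes with the hexamer 3 rose and 6 were not called, and of the 17 without it 8 rose. All 3 GH3 genes with it rose, as did 2 of the 5 tested GH3 and DAO genes without it. The sites of the GH3 and Aux/IAA genes that hold the hexamer and rose are printed as examples, with the hexamer in capitals, read 5′ to 3′ on the strand of the hexamer (RefSeq, build TAIR10.1).
YDK1, chr4:17579462-17579491, plus strand: gtgggtcccttaTGTCTCcattaactaaca
WES1, chr4:13653520-13653549, plus strand: tcttccttattgTGTCTCtactctctactt
GH3.3, chr2:9866661-9866690, minus strand: cctcttgtccccTGTCTCggtctaacgata
IAA19, chr3:5263805-5263834, plus strand: gcaccaaacttaTGTCTCtcatgtgaccga
IAA1, chr4:8360849-8360878, minus strand: acggtcctgattTGTCTCcgccagttgcgt
SHY2, chr1:1129945-1129974, plus strand: agtaataatttaTGTCTCacatcttcaaaa
IAA19 holds 3 matches in its window, and IAA14 and IAA2 hold none. A match is a description of the letters and not a measured binding site. A second hexamer, TGTCGG, was searched in the same way. It was found at 6 of 26 Aux/IAA genes (23.1%), at 0 of 9 GH3 and DAO genes and at 4.91% of protein-coding genes.

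The lateral root programme rose in large part. In a list of 21 genes, 13 rose and 1 fell of 21 tested (median log2 fold change 0.59). LBD29 measured 19.4 to 26.9 CPM (median 22.2) in L264 libraries, against 1.8 to 5.35 CPM (median 2.45) in NB libraries (log2 fold change 3.00 ± 0.24 SE, adjusted p = 8.6e-23). LBD18 measured 8.48 to 12.7 CPM (median 11.7) with L264 and 2.38 to 3.31 CPM (median 2.67) in NB (log2 fold change 2.01 ± 0.24 SE, adjusted p = 5e-13). Both are LBD transcription factors that act below ARF7 and ARF19, and in neither did the groups overlap. The related LBD16 rose by less (log2 fold change 0.65, adjusted p = 1.1e-06), and ARF19 itself rose (52.7 against 33.4 CPM, 0.66) while ARF7 did not pass (95.3 against 85 CPM, adjusted p = 0.092). IDA, the peptide signal for the separation of cells that overlie a new root, measured 1.2 to 2.35 CPM (median 1.67) with L264 and 0.0485 to 0.49 CPM (median 0.296) in NB (log2 fold change 2.65 ± 0.41 SE, adjusted p = 2.6e-08). Its receptor gene HAE was the only member that fell (-0.41). MAKR4, a membrane-associated regulator (1.16), GATA23, a marker of founder cells (1.75), SKP2B (0.33) and the expansin EXPA17 (0.80) rose, together with IAA14 and LAX3 described above. PLT5, a gene of primordium identity, did not pass (2.05 against 2.53 CPM, adjusted p = 0.15). Of 8 genes of root meristem identity only TMO5 was called, lower with L264 (log2 fold change -0.21, not called without any 1 of 4 libraries, -0.19 to -0.17), and SCR was not (39.6 against 34.9 CPM, adjusted p = 0.087).

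Root hair growth was the list with the most even response. Of 31 tested members, 30 rose and 0 fell, with a median log2 fold change of 1.44 beside 0.0 over all genes. The exception was ROP2, a GTPase that places the hair (68.9 against 65.1 CPM, adjusted p = 0.22). XTH26, a xyloglucan-modifying enzyme of hair walls, measured 15.4 to 22.9 CPM (median 18.1) in L264 libraries, against 0.264 to 2.43 CPM (median 0.82) in NB libraries (log2 fold change 4.28 ± 0.40 SE, adjusted p = 2.8e-18). FLA6, an arabinogalactan protein, measured 17.1 to 25.7 CPM (median 21.3) with L264 and 1.16 to 4.28 CPM (median 3.68) in NB (log2 fold change 2.74 ± 0.31 SE, adjusted p = 8.4e-14). PRP1, a proline-rich wall protein, measured 55.5 to 71.5 CPM (median 59.4) with L264 and 5.12 to 13.8 CPM (median 11.7) in NB (log2 fold change 2.51 ± 0.29 SE, adjusted p = 3.9e-13). In all 3 genes the groups stood apart. NB replicate 2 was the highest NB library for each of them, at 2.43 CPM for XTH26, 4.28 CPM for FLA6 and 13.5 CPM for PRP1.

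The remaining hair genes followed with smaller folds. The root hair specific genes RHS15 (log2 fold change 2.35), RHS19 (1.96), RHS13 (1.75), RHS18 (1.53) and RHS12 (1.50), the phospholipid transfer protein COW1 (1.66), the extensins LRX1 (143 against 47.3 CPM) and LRX2 (0.87), the peroxidase AT4G26010 (1.59), the expansins EXPA18 (1.29) and EXPA7 (1.01) and the proton pump AHA7 (1.10) all rose without overlap of the groups. The oxidase RHD2 (0.37) and its regulator SCN1 (0.20), which act at the hair tip, rose by less and their groups overlapped. Among 15 regulators of hair fate and growth, 8 rose and 2 fell. RSL4, whose level sets hair length, measured 14.3 to 15.5 CPM (median 14.7) in L264 libraries, against 4.33 to 9.16 CPM (median 6.44) in NB libraries (log2 fold change 1.18 ± 0.14 SE, adjusted p = 3.2e-13). RSL2 (0.99), the bHLH gene AT2G14760 (1.48) and LRL3 (0.66) also rose, and LRL1 (-0.43) and RSL1 (-0.71) fell. RHD6, which starts hair formation, did not pass (12.1 against 13.3 CPM), nor did the patterning gene CPC (6.54 against 7.38 CPM). GL2, which marks cells without hairs, rose by little (18.4 against 15.2 CPM, log2 fold change 0.28, not called without L264 replicate 4 or NB replicate 5, 0.23 to 0.24).

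Many hair genes share the root hair element, a motif bound by RSL4 and its relatives, here searched by its published consensus on both strands. It was found in the 300 bases before 10 of 31 genes of the growth list (32.3%) and before 0.915% of 27431 protein-coding genes. The element was already known from hair genes, so its share in a list of hair genes is no independent evidence. All 10 rose, and so did 20 of the 21 members without it. The sites of 9 of the 10 are printed with the element in capitals, to show how far its letters vary. That of EXPA18 is left out because the stretch overlaps a neighbouring annotated gene.
LRX1, chr1:4069887-4069926, minus strand: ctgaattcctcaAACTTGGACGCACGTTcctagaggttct
EXPA7, chr1:4276415-4276455, plus strand: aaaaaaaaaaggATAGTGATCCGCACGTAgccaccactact
PRP1, chr1:20504760-20504800, minus strand: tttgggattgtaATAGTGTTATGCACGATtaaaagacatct
LRX2, chr1:23112664-23112704, minus strand: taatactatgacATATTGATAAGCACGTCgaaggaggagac
MRH6, chr2:1132035-1132075, plus strand: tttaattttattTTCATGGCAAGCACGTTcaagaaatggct
PRP3, chr3:23182543-23182583, minus strand: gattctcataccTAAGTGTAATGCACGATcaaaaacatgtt
RHS13, chr4:993221-993261, minus strand: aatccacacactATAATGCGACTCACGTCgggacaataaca
RHS15, chr4:12920624-12920663, minus strand: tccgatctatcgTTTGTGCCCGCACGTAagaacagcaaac
RHS18, chr5:7426206-7426245, plus strand: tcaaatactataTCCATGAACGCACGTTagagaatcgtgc
The element lay between 73 bases (MRH6) and 257 bases (LRX2) from the gene start in these 9 genes. XTH26 and FLA6, with the highest folds of the list, hold no match in this window.

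The study named a list of genes strongly induced by bacteria, chosen on these same samples, so its count is no independent evidence. Of 75 tested members, 69 rose with L264 and 0 fell, with a median log2 fold change of 2.53. LBD29, UMAMIT35, CDEF1 and MES17 were its members with the smallest p-values. The cutinase gene CDEF1 averaged 1152 ± 180.0 CPM in L264 roots and 106 ± 57.6 CPM in NB roots (SD, n = 6 each; log2 fold change 3.45 ± 0.32 SE, adjusted p = 4.4e-19). MES17, an esterase that releases auxin from its methyl ester, averaged 24.3 ± 3.03 CPM in L264 roots and 2.46 ± 1.08 CPM in NB roots (SD, n = 6 each; log2 fold change 3.38 ± 0.31 SE, adjusted p = 4.6e-19).

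Ethylene genes moved in both directions. Of 12 synthesis genes 4 rose and 2 fell. ACS5 rose (7.13 against 2.88 CPM in the L264 and NB means, log2 fold change 1.32), as did ACS2 (0.42), the oxidase gene AT1G12010 (0.77) and ETO1, which destabilises ACS5 protein (0.34), and ACS7 (-1.13) and ACO4 (-0.38) fell. In perception and signalling 8 rose and 0 fell of 14 tested (median log2 fold change 0.18). EIL2, a relative of the master regulators of ethylene responses, measured 2.1 to 3.18 CPM (median 2.25) in L264 libraries, against 0.0916 to 0.506 CPM (median 0.225) in NB libraries (log2 fold change 3.24 ± 0.37 SE, adjusted p = 9.7e-14). The other 7 rose by at most 0.68 on the log2 scale, among them the receptor genes ETR2 (0.68), EIN4 (0.35) and ERS1 (0.25) and the F-box gene EBF2 (0.51), and without NB replicate 5 the number that rose was 5 in place of 8. Of the ethylene response factors and their defence targets, 3 rose, ERF6 (1.00), ORA59 (0.84) and ERF4 (0.37), and 3 fell, RAP2.6L (-1.16), PR4 (-0.67) and HCHIB (-0.40), of 12 tested.

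Cytokinin response regulators of type A, which dampen cytokinin signalling and are induced by it, counted 4 up and 0 down of 10. These were ARR17 (0.811 against 0.172 CPM, 2.40, or 3.00 without NB replicate 2), ARR16 (0.73), ARR5 (0.63) and ARR3 (0.43). Within the high library numbers alone 2 rose and 3 fell. Of 11 genes of cytokinin synthesis and breakdown 4 rose, CKX5 (0.61), CKX3 (0.56, not called without any 1 of 3 libraries, 0.39 to 0.50), CKX6 (0.27, not called without any 1 of 7 libraries, 0.21 to 0.27) and IPT5 (0.50), and 4 fell, CKX2 (-1.50), CKX4 (-0.55), IPT7 (-0.47) and IPT3 (-0.46, not called without NB replicate 1, -0.37), so that genes of synthesis (IPT) and of breakdown (CKX) stood on both sides. Of 10 gibberellin genes the inactivating GA2OX1 (0.92) and GA2OX8 (0.83) rose, and the synthesis genes GA20OX3 (-1.16), GA20OX2 (-0.81, not called without NB replicate 5, -0.67) and GA3OX2 (-0.42) fell, and within the low library numbers 2 rose and 2 fell. Of 21 abscisic acid genes 8 rose and 3 fell, and without NB replicate 1 these counts were 5 and 2. NCED9, a synthesis enzyme, measured 3.05 to 4.67 CPM (median 3.78) in L264 libraries, against 0.687 to 1.85 CPM (median 1.28) in NB libraries (log2 fold change 1.64 ± 0.25 SE, adjusted p = 7.6e-09), with no overlap. Among the enzymes that break abscisic acid down, CYP707A3 rose (0.76) and CYP707A1 fell (-0.60). The dehydrin RAB18 averaged 3.59 against 0.473 CPM (3.00) with overlap between the groups. Of 23 jasmonate genes 5 rose and 4 fell, near the shares over all genes. NIG1 was the highest, and MYC2 (0.43) and JAZ3 (0.28) rose while JAZ7 fell (-0.93). Within the low library numbers 3 jasmonate genes rose and 3 fell.

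Among immune genes the flagellin receptor gene stood out by its fold. FLS2 measured 3.79 to 6.49 CPM (median 4.43) in L264 libraries, against 0.112 to 0.681 CPM (median 0.37) in NB libraries (log2 fold change 3.79 ± 0.39 SE, adjusted p = 2.4e-16). The highest NB library lay far below the lowest L264 library. CERK1, which takes part in chitin and peptidoglycan sensing, rose by less (0.23). In the list of pattern-triggered immunity 8 rose and 3 fell of 23 tested (median log2 fold change 0.11). Besides FLS2 and CERK1 the genes that rose included FRK1 (1.03), a marker of flagellin responses, WRKY53 (0.92) and PEPR1 (0.28). The oxidase RBOHD (109.8 against 156 CPM, -0.51), the kinase BIK1 (-0.29) and PHI-1 (-0.92) fell. Without NB replicate 5 the list counted 5 up and 3 down, and within the low library numbers 3 up and 3 down. Of 11 defence markers fixed by the study, RPM1 (0.42, not called without NB replicate 4 or NB replicate 5, 0.35 to 0.36) rose and RBOHD fell.

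In the salicylic acid list 5 rose and 1 fell of 18 tested (median log2 fold change 0.10). ICS1, the synthesis enzyme, averaged 11.4 ± 1.39 CPM in L264 roots and 6.01 ± 1.02 CPM in NB roots (SD, n = 6 each; log2 fold change 0.91 ± 0.14 SE, adjusted p = 3.9e-08), with no overlap. SAG101 (0.59), ALD1 (0.75), WRKY54 (0.61) and NPR4 (0.20, not called without NB replicate 5, 0.14) rose too, and DMR6, which breaks salicylic acid down, fell (-0.20, not called without any 1 of 5 libraries, -0.19 to -0.13). Of 19 genes of camalexin and indole glucosinolates 4 rose and 5 fell, and without L264 replicate 5 these counts were 4 and 3. PAD3, the last enzyme of camalexin synthesis, measured 7.45 to 8.04 CPM (median 7.66) in L264 libraries, against 12.7 to 19 CPM (median 15.4) in NB libraries (log2 fold change -1.01 ± 0.20 SE, adjusted p = 8.4e-06). MYB34 (-0.46) and CYP79B2 (-0.50), which lead into indole compounds, also fell, each without overlap, and MYB122 (0.95) and CYP81F3 (0.52) rose. Of 12 aliphatic glucosinolate genes 2 rose and 1 fell. They were MAM1 (0.36) and CYP79F1 (2.16, not called without L264 replicate 5, 0.18), and SOT17 (-0.21, not called without L264 replicate 6, -0.18). Within the low library numbers 1 rose and 2 fell. CYP79F1 stood at 6.44 CPM in L264 replicate 5 and at 0.562 CPM in replicate 1.

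Iron genes fell more than they rose. Roots that sense a shortage of iron raise a set of bHLH factors, the reductase FRO2 and the transporter IRT1. Of 27 tested genes 13 fell and 4 rose, with a median log2 fold change of -0.51. BHLH38 measured 2.46 to 8.46 CPM (median 4.12) in L264 libraries, against 10.9 to 51.2 CPM (median 16.9) in NB libraries (log2 fold change -2.21 ± 0.31 SE, adjusted p = 5.6e-10). BHLH100 measured 0.131 to 0.943 CPM (median 0.232) with L264 and 1.33 to 6.85 CPM (median 1.86) in NB (log2 fold change -2.83 ± 0.56 SE, adjusted p = 1.3e-05). NAS2, which makes the iron chelator nicotianamine, measured 28.7 to 77.7 CPM (median 54.4) with L264 and 81.5 to 261 CPM (median 126) in NB (log2 fold change -1.42 ± 0.24 SE, adjusted p = 4.3e-07). The groups did not overlap in any of the 3, and without L264 replicate 3, at 0.943 CPM, the log2 fold change of BHLH100 was -3.58. BHLH39 (-0.88), MYB10 (-1.37), NAS1 (-0.72), NAS4 (-0.58), PYE (-0.51) and IRT1 (411 against 706 CPM, -0.78, not called without NB replicate 1, -0.55) also fell, and the groups of PYE and IRT1 overlapped. FIT, the factor that drives IRT1 and FRO2, did not pass (99.2 against 112 CPM, adjusted p = 0.31), nor did FRO2 (254 against 311 CPM). The transporter IRT2 went the other way (24.7 against 8.7 CPM, log2 fold change 1.52 ± 0.22 SE, adjusted p = 4.8e-09), as did BHLH101 (0.56, not called without any 1 of 4 libraries, 0.46 to 0.51), the proton pump AHA2 (0.25, not called without any 1 of 3 libraries, 0.17 to 0.23) and the ferritin FER3 (0.21, not called without any 1 of 8 libraries, 0.15 to 0.22). Without NB replicate 1 the counts were 10 down and 2 up, and without L264 replicate 5 they were 11 down and 2 up. In the coumarin list, whose compounds mobilise iron, only CYP82C4 of 6 genes fell (169 against 345 CPM, -1.03, not called without NB replicate 1, -0.75), and the scopoletin enzyme F6'H1 (269 against 225 CPM, adjusted p = 0.16) and the exporter PDR9 (663 against 739 CPM, adjusted p = 0.22) did not pass. The G-box CACGTG, a common site of bHLH proteins, was found before 6 of 27 iron genes (22.2%) and before 7.09% of protein-coding genes. Of these 6, BHLH38, BHLH100 and BTS (-0.24, not called without L264 replicate 5 or NB replicate 1, -0.22 to -0.14) fell, FER3 rose (0.21), and FER4 (-0.12) and OPT3 (-0.11) did not pass, and of the 21 without it 10 fell and 3 rose. Only the sites of BHLH38 and BHLH100, whose values are given above, are printed, with the hexamer in capitals.
BHLH38, chr3:21085325-21085354, minus strand: cataggcttcgaCACGTGccaacctatgcc
BHLH100, chr2:17199528-17199557, minus strand: aaagtgctcaacCACGTGtcaacgcatgtc

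Lists for other nutrients had smaller median shifts than the iron list, though single genes in them moved by as much. Of 25 phosphate starvation genes 7 fell and 1 rose (MGD2, 0.46), with a median of -0.19. The acid phosphatase PAP17 measured 17.8 to 25.2 CPM (median 19.2) in L264 libraries, against 39.4 to 55.5 CPM (median 43.8) in NB libraries (log2 fold change -1.14 ± 0.14 SE, adjusted p = 3.8e-12). PAP10 (-0.66), SQD1, of sulfolipid synthesis (-0.26), and the transporter PHT1;2 (2.3 against 7.01 CPM, -1.58) fell as well. PHT1;2 is a near-identical copy of PHT1;1, so its reads are uncertain. Of 20 nitrogen genes 5 rose and 3 fell. The nitrate transporters NRT2.1 (29.4 against 8.68 CPM, log2 fold change 1.78 ± 0.32 SE, adjusted p = 1.7e-06) and NRT1.1 (1169 against 728 CPM, 0.68), the nitrate reductase NIA1 (0.74), GLT1 (0.47) and the regulator HRS1 (0.86) rose, and NIR1 (-0.75), UPM1 (-0.96) and GLN1;3 (-0.19, not called without NB replicate 5, -0.15) fell. In the sulfur list 2 rose and 6 fell of 17 tested (median log2 fold change -0.12). The uptake transporters SULTR1;1 (23.1 against 7.5 CPM, 1.65) and SULTR1;2 (0.57) rose. BGLU28 (-2.96), GGCT2;1 (-1.21), LSU1 (-0.85), LSU2 (-0.60), APR2 (-0.49) and SULTR4;2 (-0.36) fell. Within the high library numbers alone 4 rose and 3 fell (median log2 fold change 0.17), and within the low numbers 2 rose and 8 fell (median -0.42).

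The endodermis carries a lignin band, the Casparian strip, and later a suberin coat. Of 13 strip genes 8 rose and 2 fell. PER64, a peroxidase of the strip, averaged 125 ± 10.8 CPM with L264 and 84.7 ± 17.1 CPM in NB (SD, n = 6 each; log2 fold change 0.57 ± 0.12 SE, adjusted p = 5.8e-05), and the regulator MYB36 (0.33), the receptor GSO1 (0.37), the kinase AT1G61590 (0.60) and CASP1 (0.39) rose without overlap, and AT4G34600 (-0.43) and AT2G16385 (-0.50, not called without NB replicate 5, -0.27) fell. Within the low library numbers alone 3 rose and 2 fell. Of 20 suberin genes 2 rose, MYB92 (0.33) and ABCG20 (0.31, not called without L264 replicate 4, 0.27), and 5 fell, among them CYP86A1 (-0.38) and FACT (-0.42). The 5 that fell became 3 without any 1 of L264 replicate 5, NB replicate 1 and NB replicate 5, and within the low library numbers 2 rose and 1 fell. Phenylpropanoid genes counted 1 up (FAH1, 0.50) and 5 down of 18, led by CCR2 (-0.50), CAD5 (-0.34) and C4H (-0.29). Flavonoid synthesis fell: 7 of 10 members were lower and 0 higher, with a median of -0.51. CHI, chalcone isomerase, measured 45.6 to 73.2 CPM (median 66.3) in L264 libraries, against 77.3 to 138 CPM (median 114) in NB libraries (log2 fold change -0.82 ± 0.12 SE, adjusted p = 2.9e-09), and the groups stood apart. F3H (-0.73), UGT78D1 (-0.72), FLS1 (-0.50) and CHS (-0.48) fell with it, while their regulator MYB12 did not pass (20.1 against 22.6 CPM). Of 9 genes of the root triterpene clusters 4 rose, CYP705A12 (53.4 against 24.4 CPM, 1.12), CYP705A1 (0.85), PEN1 (0.41) and THAH (0.36, not called without any 1 of 8 libraries, 0.27 to 0.38), and 0 fell.

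Genes of detoxification, hypoxia and mitochondrial stress fell more often than they rose with L264. Of 13 detoxification genes 11 fell and 0 rose, with a median of -0.68. AER, a reductase of reactive aldehydes, measured 21.3 to 33.3 CPM (median 28) in L264 libraries, against 72.2 to 118 CPM (median 87.7) in NB libraries (log2 fold change -1.74 ± 0.15 SE, adjusted p = 2.9e-20). Its neighbours AT5G16980 (-2.36) and AT5G16990 (-0.50) are similar copies, and all 3 fell. UGT74E2, which glycosylates the auxin precursor indole-butyric acid, measured 19.5 to 27 CPM (median 25.2) with L264 and 51.7 to 161 CPM (median 73.5) in NB (log2 fold change -1.80 ± 0.20 SE, adjusted p = 1.6e-14). The glutathione transferases GSTU25 (113 against 275 CPM, -1.28) and GSTU24 (-0.69) and the fatty acid dioxygenase DOX1 (2169 against 4571 CPM, -1.08) fell too, all without overlap.

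Of 15 hypoxia genes 6 fell and 0 rose. PDC1, a pyruvate decarboxylase of fermentation, measured 14.2 to 22.2 CPM (median 17.7) in L264 libraries, against 35.9 to 63 CPM (median 37.5) in NB libraries (log2 fold change -1.23 ± 0.15 SE, adjusted p = 6.5e-12). The haemoglobin HB1 (10.1 against 21.6 CPM, -1.09), the response factors HRE2 (0.154 against 1.82 CPM, -3.47, or -2.56 without NB replicate 1) and HRE1 (-0.49) and PDC2 (-0.28) were among the others that fell. In the list of alternative oxidases and mitochondrial stress 4 of 9 fell. AOX1A averaged 80.1 ± 6.23 CPM with L264 and 142 ± 19.6 CPM in NB (SD, n = 6 each; log2 fold change -0.82 ± 0.08 SE, adjusted p = 1.3e-17), and its regulator NAC013 (-0.83), the oxidative stress marker AT2G21640 (-2.38) and NDB2 (-0.43) fell beside it. AOX1B was the single member that rose, with 29 counts in all L264 libraries and 2 in all NB libraries, a ratio per library total of 12 (95% counting interval 3.03 to 104). Of 5 heat shock genes 3 fell, HSP90.1 (147 against 228 CPM, -0.63), HSP17.4 (-0.73, not called without NB replicate 1, -0.54) and HSP101 (-0.39, not called without any 1 of 4 libraries, -0.34 to -0.30). Without NB replicate 1, the highest NB library for HSP90.1 (283 CPM), 1 gene of the heat shock list fell.

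Clock genes differed in a patterned way, and the labels give no hour of harvest. The morning genes CCA1 (34.7 against 60.6 CPM, log2 fold change -0.80 ± 0.12 SE, adjusted p = 2e-09) and LHY (55.9 against 107 CPM, -0.93) fell with RVE8 (-0.28), and 9 of 13 clock genes rose, among them ELF4 (0.68), LUX (0.28), ELF3 (0.25) and TOC1 (0.27). Within the high library numbers alone 3 rose and 3 fell. Of 16 aquaporins 6 rose, led by PIP2;4 (115 against 64.2 CPM, 0.84) and with PIP1;5 (0.47), PIP2;2 (0.38) and the vacuolar TIP1;1 (0.38) among them, and 1 fell (PIP2;5, -0.43). In the list of sugar and amino acid transport 6 rose and 5 fell of 18. LHT1, which takes up amino acids from the medium, measured 54.9 to 72.6 CPM (median 67.3) in L264 libraries, against 8.48 to 28.4 CPM (median 18.8) in NB libraries (log2 fold change 1.76 ± 0.19 SE, adjusted p = 4.4e-15). The hexose carriers STP4 (0.62) and STP1 (0.57) and the wall invertase CWINV1 (0.49) rose without overlap, and SUC1 (-0.22) and STP13 (-0.37) fell. Of 24 cell cycle genes 7 fell, by at most 0.64 on the log2 scale for CYCD6;1 (-0.64), the cyclins CYCA1;1 (-0.38), CYCD3;2 (-0.35, not called without NB replicate 5, -0.10) and CYCD3;3 (-0.26, not called without NB replicate 5, -0.14) among them, and 2 rose, MCM5 (0.24, not called without any 1 of 4 libraries, 0.17 to 0.21) and MCM2 (0.24, not called without any 1 of 6 libraries, 0.17 to 0.24). In the fit of the 12 libraries alone 0 rose and 2 fell, so the counts of this list depend on the fit. Of 25 photosynthesis genes 3 were called, GLK2 (0.46), PORB (0.71, not called without L264 replicate 6 or NB replicate 1, 0.59 to 0.61) and RBCS1B (3.16, not called without L264 replicate 5, 0.21), and RBCS1B stood at 60.4 CPM in that library.

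Against the mean of the other 15 strains, a comparison that leaves NB out, 1839 genes differed (8.50%), of which 1299 were higher with L264 (6.00%) and 540 lower (2.50%). L264 replicate 5 bears on this count: without it 1382 genes were called, and 1239 genes were called both ways. The 10 genes highest by log2 difference with all libraries, TGG2, CA1, RBCS2B, RBCS1B, TGG1, AT2G10940, ESM1, CA2, ECS1 and MLP28, include carbon fixation genes of green tissue (CA1, CA2, RBCS1B and RBCS2B) and the myrosinases TGG1 and TGG2, and without that library none of them was called, at log2 differences of 0.35 (RBCS1B) to 1.58 (TGG2). RBCS1B and RBCS2B are near-identical neighbours, so the split of reads between them is uncertain. CA1, a carbonic anhydrase, stood at 90.0 CPM in L264 replicate 5 and at 5.29 CPM in replicate 1. The 10 highest without it included PGAZAT, EXPB2, PIRL8, PR-1-LIKE, AIR1, NIG1 and FLS2. With all libraries FLS2 averaged 4.68 against 1.34 CPM in L264 roots and the other strains (log2 difference 2.07 ± 0.19 SE, adjusted p = 4.7e-19) and PGAZAT 78.2 against 27.9 CPM (log2 difference 2.57 ± 0.22 SE, adjusted p = 3.2e-21). Hair and auxin lists stood higher with L264 also beside the mean of the other 15 strains. Here 25 of 31 hair growth genes were higher with L264 and 0 lower (median log2 difference 0.44), as were 10 of 26 Aux/IAA genes and 9 of 21 lateral root genes, and without replicate 5 these counts were 22, 9 and 9. IDA averaged 1.75 against 0.52 CPM (log2 difference 1.97 ± 0.23 SE, adjusted p = 5.3e-13), LBD29 22.8 against 10.5 CPM (log2 difference 1.41 ± 0.13 SE, adjusted p = 4.1e-18) and IAA14 51.2 against 29.4 CPM (log2 difference 0.86 ± 0.076 SE, adjusted p = 1.3e-19).

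Iron genes were lower with L264 also beside the mean of the other 15 strains, 7 of 27 against 1 higher (without replicate 5, 5 and 0). This did not hold beside each strain. Against L343 alone 2 iron genes were lower, 1 was higher and 24 were not called (median log2 difference -0.10). Against RMF27 alone 10 were lower and 6 higher. BHLH38 averaged 4.59 against 10.9 CPM in L264 roots and the other strains (log2 difference -1.16 ± 0.25 SE, adjusted p = 0.00024) and BHLH100 0.348 against 2.19 CPM (log2 difference -2.31 ± 0.47 SE, adjusted p = 0.00013). BHLH100 was the lowest by log2 difference among called genes with at least 1 CPM in either mean (-3.05 without L264 replicate 3), and the others of the 10 lowest were the lectin kinases AT2G29220 (1.58 against 11.7 CPM, -2.26) and AT2G29250 (-1.71, or -2.37 without L264 replicate 3), the pectin lyase-like gene AT1G05650 (-1.60), the small heat shock protein HSP17.6A (-1.53), AT4G33720 of the PR1 family (-1.42), PHT1;2 (-1.36), AT5G25260 (-1.25), AT3G55790 (-1.74) and AT3G48640 (-1.73). Of these, AT3G55790, AT2G29250 and AT4G33720 were not called without any 1 of 4, 3 and 2 of the L264 libraries, replicate 5 among them each time, and without that library the differences were -1.71, -1.54 and -1.37. In the salicylic acid list 5 were lower and 1 higher, with PBS3, an enzyme of salicylic acid synthesis, among the lower ones (2.99 against 8.19 CPM, log2 difference -1.21 ± 0.35 SE, adjusted p = 0.012, not called without L264 replicate 6), and without replicate 5 these counts were 3 and 0. Detoxification genes counted 2 lower of 13 here, DOX1 and AER, and AER was not called without any 1 of 4 L264 libraries, replicate 5 among them. Flavonoid genes counted 1 of 10 (CHS, not called without L264 replicate 4 or replicate 5). In the order of the 17 Col-0 group means, L264 was among the 3 highest for 24 of 31 hair growth genes (77.4%) and 16 of 26 Aux/IAA genes (61.5%), beside 17.7% of all genes. L264 was the highest of all groups for 0 of the 31 hair growth genes and for 1 of the 26 Aux/IAA genes, beside 4.44% of all genes. It was among the 3 highest for 9 of 13 Casparian strip genes (69.2%) too, but only 1 of the 13 was called higher than in the other strains, and that gene was not called without L264 replicate 5. It was among the 3 lowest for 13 of 27 iron genes (48.1%), beside 16.0% of all genes. A single gene, GulLO3 of the gulonolactone oxidase family, was called higher with L264 than in every other Col-0 group, at 21.7 to 29.9 CPM (median 26.1) in L264 libraries, against 11.4 to 14.5 CPM (median 13.3) in NB libraries (log2 fold change 0.99 ± 0.11 SE, adjusted p = 4.3e-14). The nearest strain for it was L343, with a mean of 20.2 CPM. No gene was called lower than in every other group.

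**Figure D4:**
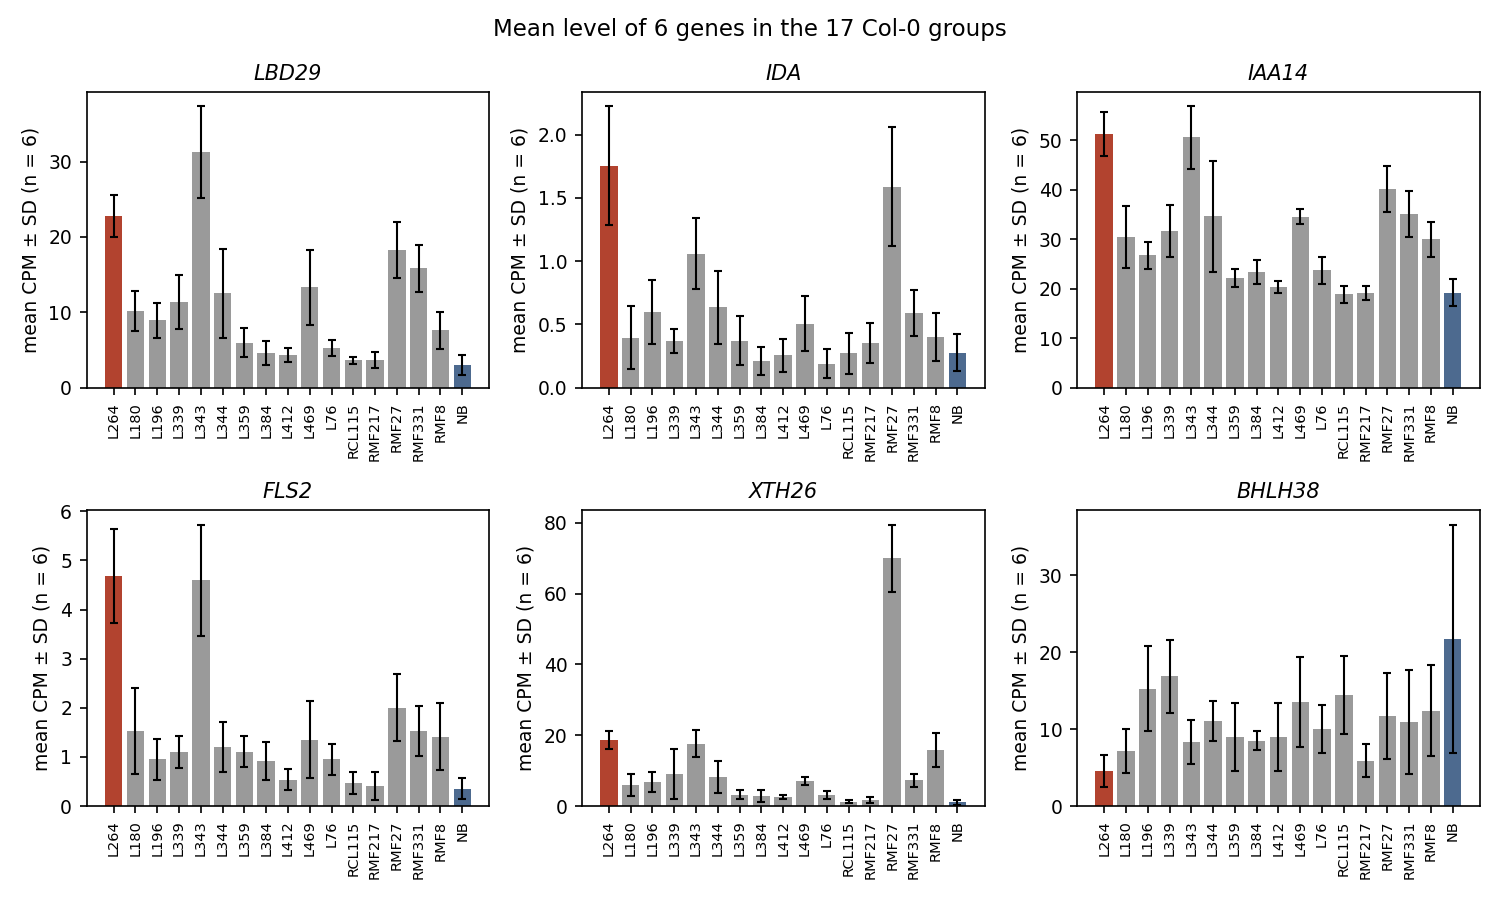
Mean level (CPM, axis from 0) of LBD29, IDA, IAA14, FLS2, XTH26 and BHLH38 in the 17 Col-0 groups, with L264 first and NB last, and the SD of the 6 libraries as an error bar. L264 has the highest mean for IDA, IAA14 and FLS2 and the lowest for BHLH38, and RMF27 exceeds it for XTH26 (70.0 against 18.7 CPM).

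L343 and RMF27 were compared singly because their level of the study's strongly induced genes lay nearest to or above that of L264. Both were chosen with earlier results of these data known, so likeness to L343 follows in part from the choice. L343, a Sphingomonas strain, gave the most similar roots of the 2. Against L343, 606 genes differed (2.80%), 477 higher with L264 (2.20%) and 129 lower (0.596%), and the number was 284 without L264 replicate 2, 364 without L264 replicate 6, 285 without L343 replicate 5 and 334 without L343 replicate 6. No gene of the hair growth, lateral root, Aux/IAA, GH3 and DAO or auxin transport lists was called. LBD29 averaged 22.8 CPM with L264 and 31.3 CPM with L343 (log2 difference -0.45 ± 0.20 SE, adjusted p = 0.2), IAA14 51.2 and 50.6 CPM (log2 difference 0.016 ± 0.11 SE, adjusted p = 0.96) and FLS2 4.68 and 4.6 CPM (log2 difference 0.026 ± 0.29 SE, adjusted p = 0.98). A p that misses the threshold does not show that these levels were alike. Phenylpropanoid genes counted 7 higher of 18, camalexin and indole glucosinolate genes 6 higher and 2 lower of 19, clock genes 5 higher of 13 and nitrogen genes 4 higher of 20. Without L264 replicate 5 clock genes counted 4 higher and 1 lower.

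RMF27, a Bacillus strain, gave roots that differed from L264 roots at 5744 genes (26.5%), 2739 higher with L264 (12.7%) and 3005 lower (13.9%). Hair growth genes were lower with L264, 29 of 31 and none higher (median log2 difference -0.97). XTH26 averaged 18.7 CPM with L264 and 70.0 CPM with RMF27 (log2 difference -1.90 ± 0.28 SE, adjusted p = 1.4e-08), and RSL4 14.8 and 34.1 CPM (log2 difference -1.21 ± 0.13 SE, adjusted p = 2.4e-15). Of the strongly induced genes, by whose level RMF27 was chosen, 55 of 75 were lower and 1 higher with L264. Lateral root genes divided less, with 3 lower and 1 higher of 21. IAA14 was higher with L264 (51.2 against 40.2 CPM, log2 difference 0.35 ± 0.11 SE, adjusted p = 0.014), FLS2 too (4.68 against 2.01 CPM, log2 difference 1.23 ± 0.31 SE, adjusted p = 0.00079), and LBD29 did not pass (22.8 against 18.3 CPM, log2 difference 0.32 ± 0.20 SE, adjusted p = 0.24). Nitrogen genes counted 11 higher and 4 lower of 20, aquaporins 7 higher of 16, detoxification genes 5 higher of 13, and abscisic acid genes 2 higher and 11 lower of 21. Without L264 replicate 5 abscisic acid genes counted 2 higher and 9 lower.

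**Figure D5:**
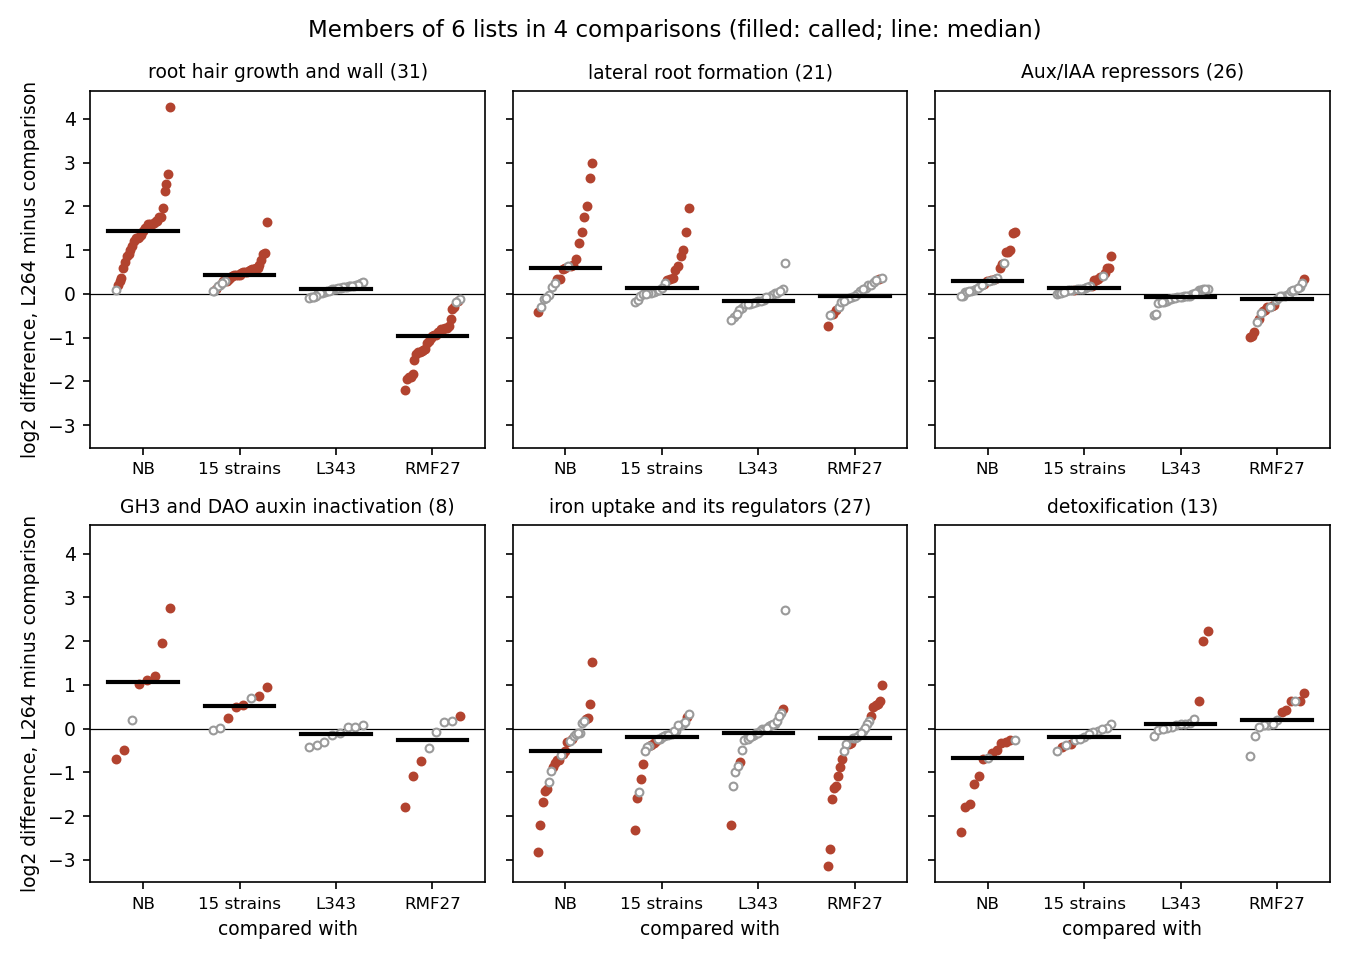
Log2 difference (vertical axis) of each member of 6 lists in 4 comparisons of L264, with NB, the mean of the other 15 strains, L343 and RMF27. Filled points passed an adjusted p of 0.05, open points did not, and the line is the list's median. The hair growth genes have a median of 1.44 against NB, 0.44 against the other strains, 0.12 against L343 and -0.97 against RMF27. The 4 comparisons share the L264 libraries.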

How the data were processed

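Pooled roots of Col-0 plants were sequenced as poly(A)-selected messenger RNA. Reads were trimmed (fastp 0.20.1) and assigned to Ensembl Plants transcripts (salmon 1.6.0) by the authors, who summed them by gene with tximport and deposited estimated counts for 32311 genes in 222 libraries, all whole numbers. Estimated counts split reads between near-identical genes, so single members of such families are uncertain. Library totals were 10255732 to 29735838 (median 18434824), which makes genes of few counts the least precise.

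Genes passing filterByExpr (21635) were fitted in edgeR 4.0.16 (R 4.3.3, limma 3.58.1) with TMM scaling and the robust quasi-likelihood test in 1 model of 37 groups of 6 libraries. The counts were used as deposited. L264 was contrasted with NB, the mean of the other 15 Col-0 strains, L343 and RMF27, and p-values were adjusted by Benjamini-Hochberg per contrast at 0.05. Levels (CPM) are counts on a common scale of effective library sizes, relative to the library and not per length, and fold changes use a prior count of 0.125. The median shift over all genes was 0.0 on the log2 scale. DESeq2 1.42.0 and the other settings were alternatives. Replicate numbers follow the order of deposition and pair nothing. No pair of replicates agreed within sampling noise. On simulated counts with 200 changed genes, 192 were found, and 7 of the calls were false. The simulation gave every group the same spread and changed far fewer genes than were called here. It therefore does not show the share of false calls in the real comparisons. Gene names and promoter windows came from RefSeq TAIR10.1, which named 99.2% of IDs, while the deposited counts rest on Ensembl Plants.

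The text names the 15 highest and 15 lowest called genes against NB without overlap and with at least 1 CPM in the higher group, the 10 highest and lowest against the other strains, genes beyond every other Col-0 group, and of 42 lists the called genes among the 4 with the smallest adjusted p, plus members needed to describe a role, some of them chosen after their values were seen. The lists, the comparisons and the libraries of this account were chosen with earlier results of these data known.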

Additional observations from a re-analysis of the deposited data

Results flagged for a closer look

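The 6 libraries of each group were compared for each gene named in the text, for library totals and for the photosynthesis sum. A library was singled out by its gap to the nearest of the other 5, divided by the range of the group. This ratio had to pass Dixon's 95% critical value for 6 samples. Among 594 groups of 6 tested, a library stood apart in 87 cases. Values with a normal spread would give about 1 in 20 groups. CPM values need not have that spread, so this rate does not measure chance here. The same libraries recur, so the 87 cases are not separate findings, and what set the libraries apart was not tested. All values below are CPM.

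Among the L264 libraries, replicate 5 lay above the other 5 for CYP79F1 (6.44), ECS1 (13.5), MLP28 (9.27), AT2G10940 (27.5), CA1 (90.0), ESM1 (26.6), CA2 (39.5), TGG2 (19.9), TGG1 (46.4), RBCS2B (88.2) and RBCS1B (60.4), and below them for NAS4 (3.57), NIR1 (270.2), AUX1 (154), CWINV1 (487), CERK1 (62.1) and CHS (729). It was the library with the most photosynthesis RNA (3651 CPM over 25 genes). L264 replicate 2 lay above the other 5 for EXPA18 (92), DOX1 (2656), AOX1A (92.1), RHS13 (153), UGT84A3 (6.27) and LRL3 (45.7). L264 replicate 6 lay above the other 5 for AT1G23510 (1.57), CCR2 (41.5), ERF6 (26.8) and FLS2 (6.49), and replicate 3 lay above the other 5 for AT2G29250 (0.524), BHLH100 (0.943), BHLH38 (8.46) and CYP82C4 (312).

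Among the NB libraries, replicate 1 lay above the other 5 for ACS2 (8.99), FRO2 (538), UGT74E2 (161), NAC013 (38.8), NIA1 (399), NDB4 (4.72), GH3.3 (76.8), PID (3.54), DOGT1 (15.3), BHLH100 (6.85), AT2G41730 (17.7), HRE2 (5.95), HSP17.4 (10.3), AT3G54530 (4.16), BHLH38 (51.2), AT4G12735 (2.36), IRT1 (1235), PDC1 (63), AT5G09570 (6.52), HSP17.6A (7.75), AT5G24640 (3.71), RBOHD (228) and NAS2 (261), and below them for PIP2;4 (28.6). NB replicate 2, the shallowest library, lay above the other 5 for AT1G11920 (0.876), EXPB2 (3.31), PR-1-LIKE (18), PGAZAT (7.78), AT2G43860 (0.195), AIR1 (462), PIRL8 (0.584), CKX4 (45.8), CDEF1 (221), YDK1 (66.9), NIG1 (0.292) and RAB18 (0.973). NB replicate 5 lay above the other 5 for AT1G14120 (224), AT1G14130 (84.5), ROP2 (81.3), ARR3 (9.93), AT2G16385 (15.7), PR4 (538), SCN1 (106), CYCD3;3 (32.3), SQD1 (26.8), SHR (29.4), MYB34 (251) and CYCD3;2 (51.2), and below them for LRL1 (56.9), HAE (9.02) and TOC1 (22.8). NB replicate 3 lay below the other 5 for IAA7 (59.7), and NB replicate 6 lay above the other 5 for AT2G29250 (0.728) and AT3G55790 (4.22), and below them for CYP86A1 (265).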

How the results depend on the processing

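Against NB, 7252 genes were called. The count lay within 1.5 times of this with RLE size factors (7297), without a filter (7023), with a stricter one (6871), with the library number range as a covariate (7415), within the low library numbers (5522), in DESeq2 (7286) and at adjusted p thresholds of 0.01 (5009) and 0.1 (8732). It was 4538 in the fit of both groups alone and 4446 within the high library numbers, and 1066 genes also had a log2 fold change of at least 1. Leaving out 1 library at a time gave 5994 to 7855 genes. Against the other 15 strains the 1839 genes became 1110 within the low library numbers, 1061 at 0.01 and 263 with the fold limit, and 1382 to 1720 without 1 library. Against L343 the 606 genes became 95 within the low and 391 within the high library numbers, 226 at 0.01, 1174 at 0.1, 64 with the fold limit, and 284 to 777 without 1 library. Against RMF27 the 5744 genes became 2524 within the low library numbers, 3609 at 0.01, 659 with the fold limit, and 4804 to 6136 without 1 library. Subsets of 3 libraries a group hold fewer samples, and other causes were not tested.

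Over the 295 genes of the text, 6460 alternative values of the log2 fold change against NB were computed, of which 6166 kept direction and side of the threshold, 263 lost the call, 10 gained one and 21 changed sign, the last in 9 genes not called against NB. Within the low library numbers the values that changed sign were -0.55 (AT2G29220), -1.21 (AT2G29250), -0.25 (AT3G48640), -0.70 (PBS3) and -0.39 (AT5G25260), and within the high ones 0.11 (FIT) and 0.28 (AT4G33720). Leaving out libraries gave -0.13 to 0.83 for AT2G29220, -0.41 to 2.02 for AT2G29250, -0.21 to 0.62 for PBS3, -0.11 to 0.69 for AT5G25260, -0.19 to 0.054 for FER4 (0.037 without both L264 replicate 5 and NB replicate 5) and -0.057 to 2.69 for AT2G10940, whose value without both L264 replicate 5 and NB replicate 5 was -0.057. Leaving out 1 library ended the call of 35 of the named genes. The fit of the 12 libraries alone ended the call of 30 named genes. Within the high library numbers 61 lost the call, and within the low ones 39. Genes that lost the call only in these 3 fits are not marked in the text. The leave-one-out fits kept the gene set and dispersions of the full fit. The settings added after seeing the data are those without L264 replicate 5 or chosen NB libraries in the list counts. No paired analysis was possible because the labels give no replicate number, and the numbers used here follow the order of deposition.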
